A study of Mus musculus with 2 samples.

Results

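Muc6 encodes a gel-forming mucin, and 89 of the 6343 segmented cells in 1 imaged region of mouse intestine held at least 2 of its transcripts. These Muc6 cells were chosen by their own Muc6 count alone, with no minimum of other transcripts, in the table of region 0 of the female animal (replicate 2). They are 89 of the 31893 cells of all 4 tables and made up 1.40% of their own table (exact 95% binomial interval 1.13 to 1.72%). They were set against 419 reference cells of the same table, which had a Muc6 count of 0 and at least 2 counts of any panel gene. A panel count is 1 transcript of any of the 140 measured genes. The 40 blank barcodes, which match no gene, were kept apart.

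Duodenum and colon came from 1 male and 1 female C57Bl6 mouse on standard chow, with no genotype or experimental treatment named in the labels. Their age is labelled 6 to 10 weeks, and the protocol speaks of 6 weeks. Tissue fixed in paraformaldehyde was frozen, and sections of 10 µm were imaged on the MERSCOPE instrument, which reads single transcripts by repeated rounds of fluorescence, after the cell boundaries had been stained. Each animal gave 2 tables, named region 0 and region 1, and the labels do not say which tissue lies in which. All Muc6 cells come from 1 region of 1 female, so no value below was tested, and the exact 95% intervals in brackets cover counting error only.

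Muc6 is made by mucous cells of gastric glands and by the Brunner glands, which lie in the submucosa of the duodenum. Brunner glands secrete mucus and bicarbonate into the duodenal lumen, where they buffer gastric acid. Their cells are known for the trefoil peptide Tff2 beside Muc6, and for the apical chloride channel Cftr.

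The panel could not show whether the Muc6 cells were Brunner gland cells. Of 10 listed markers of Brunner glands and gastric-type mucous cells only Muc6 was measured, so the cells are called Muc6 cells here. None of the 12 listed markers of goblet and Paneth cells, of the 13 of enteroendocrine and tuft cells, and of the 7 of immune and endothelial cells was on the panel, so these types could not be looked for.

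Muc6 cells appeared in 1 of the 4 tables. Female region 0 held 610 Muc6 counts, the highest cell 38. Female region 1 held 11 Muc6 counts in 13707 cells, male region 0 held 4 in 7775 cells, and male region 1 held 0 in 4068 cells. None of these 15 counts shared a cell with another, so 0 of the 25550 cells of the other 3 tables were Muc6 cells, which allows a share of up to 0.0117%. Female region 0 held 0.676 panel counts per cell. Female region 1 was deeper, at 3.35, and both male tables were shallower, at 0.392 in region 0 and 0.143 in region 1, and the part of depth in their lack of Muc6 cells was not tested. Muc6 lay below the highest blank barcode in each of these 3 tables (11 against 46, 4 against 9 and 0 against 2), and far above it in female region 0 (610 against 33). No cell identifier was shared between tables.

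Muc6 counts were spread unevenly over the cells that carried them. The lowest Muc6 cell held 2 counts, the median 3 and the highest 38, with a mean of 5.61 and an SD of 6.15 over the 89 cells. There were 28 cells with 2 counts, 17 with 3, 14 with 4, 18 with 5 to 9, and 12 with at least 10. These 12 cells gave 218 of the 499 Muc6 counts of the group, or 43.7%, and the 5 highest gave 131. Just outside the threshold stood 111 cells with exactly 1 Muc6 count. Together the Muc6 cells held 81.8% of the Muc6 counts of the table.

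**Figure D1:**
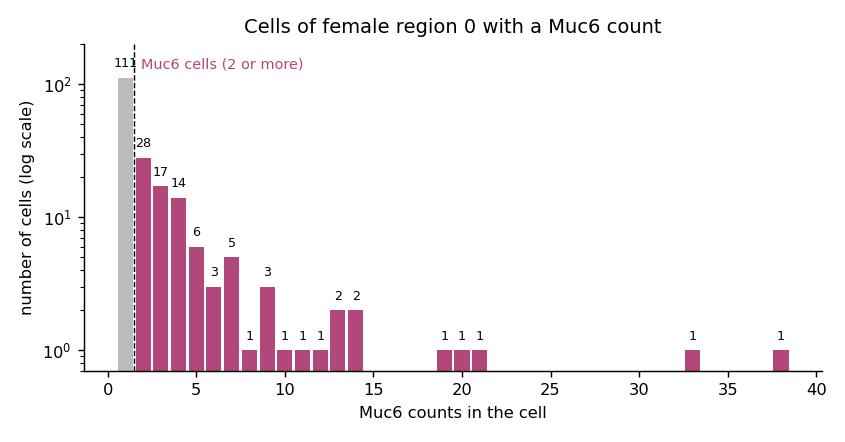
Number of cells (log scale) of female region 0 by Muc6 counts in the cell; cells with a count of 0 are not drawn, the bar at 1 (grey, 111 cells) lies outside the threshold marked by the dashed line, and the 89 Muc6 cells are the coloured bars. The bars fall from 28 cells at 2 counts to single cells at 33 and 38.

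Muc6 cells lay in few blocks of the cell identifiers. Digits 11 to 13 of the 19-digit identifier split the table into 43 blocks, whose meaning is not given in the sources used here. All 89 Muc6 cells fell in 5 of them, numbered 28, 29, 34, 35 and 39, which held 1970 cells, or 31.1% of the table. Block 35 had 36 Muc6 cells among 350 cells (10.3%; 7.31 to 14%). Block 34 had 34 among 557 (6.10%; 4.26 to 8.43%). Blocks 34 and 35 together held 78.7% of the Muc6 cells and 14.3% of all cells. Block 29 had 12 Muc6 cells among 352, block 28 had 5 among 351, and block 39 had 2 among 360. The highest Muc6 count was 38 in block 35, 33 in block 34, 14 in block 29, 4 in block 28 and 2 in block 39. Median Muc6 counts of the Muc6 cells ran from 2 in block 39 to 5 in block 29.

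Cells with exactly 1 Muc6 count, which the threshold had not selected, lay mostly in the same blocks. Of these 111 cells, 90 (81.1%) fell in the 5 blocks, against 29.2% of the 6143 cells without Muc6. In the 5 blocks 4.57% of all cells had exactly 1 count (3.69 to 5.59%), and outside them 0.480% (21 of 4373 cells; 0.298 to 0.733%). These 21 cells lay in 5 further blocks, numbered 22, 23, 40, 44 and 45, and the other 33 blocks held no Muc6 count. The 21 Muc6 counts outside the 5 blocks are fewer than the 29 of the highest blank barcode over the same cells. The 5 blocks held 0.493 panel counts other than Muc6 per cell, against 0.619 in all blocks outside them and 0.42 in the 36 that remain without blocks 13 and 31, the deepest of the table.

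**Figure D2:**
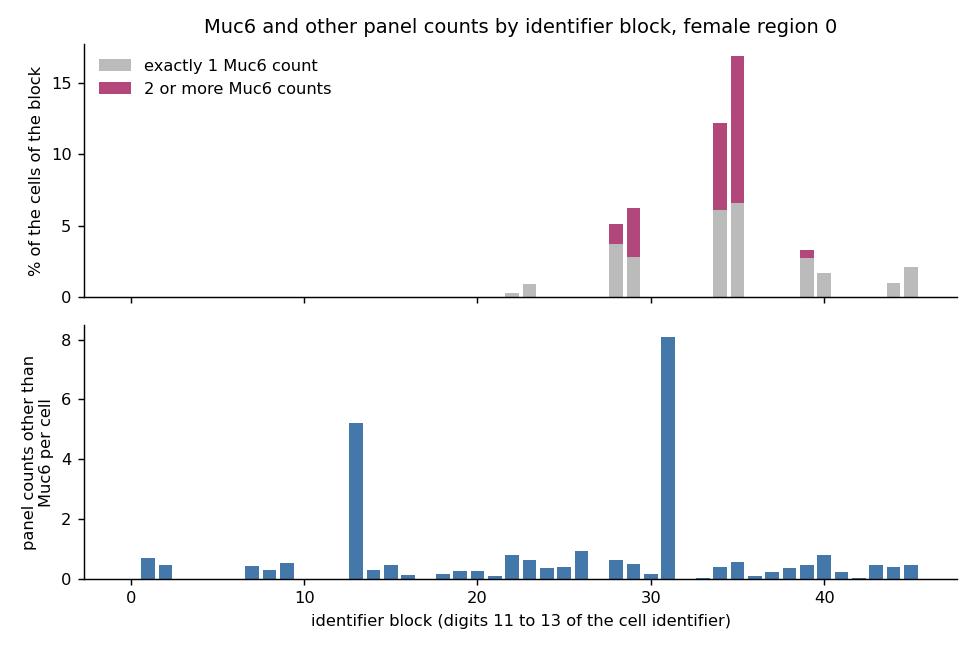
Upper panel, percent of the cells of each of the 43 identifier blocks with exactly 1 Muc6 count (grey) and with at least 2 (coloured, stacked); lower panel, panel counts other than Muc6 per cell in the same blocks. The coloured bars stand in blocks 28, 29, 34, 35 and 39 only, while the deepest blocks, 13 and 31 with 5.22 and 8.08 counts per cell, hold no Muc6.

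Muc6 was nearly the whole of what these cells showed. It made up 499 of their 557 panel counts, or 89.6% (86.7 to 92.0%). In 53 of the 89 cells (59.6%) it was the only panel gene found. A further 21 cells held 1 other count, 12 held 2, 2 held 3, and 1 held 7. In no cell did the other counts outnumber Muc6, and in 3 they equalled it. The cell with 38 Muc6 counts carried the 7 others, among them 2 of the semaphorin receptor gene Nrp1 and 1 each of Cftr, the potassium channel gene Kcnn4, the semaphorin gene Sema3e and the glutamate receptor gene Grid1. The cell with 33 held 2 counts of the calcium-sensor gene Cracr2a and 1 of the GDNF co-receptor gene Gfra1. Blank barcodes gave 3 counts in the Muc6 cells, from 3 different barcodes. These were 0.536% of a total that includes the 499 Muc6 counts that chose the cells, against 2.66% in the reference cells. Set beside counts other than Muc6, blanks were 3 to 58 in Muc6 cells and 74 to 2713 in reference cells. In the cells without Muc6 of the 5 blocks they were 26 to 845.

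Other transcripts in Muc6 cells were set against cells of the same identifier blocks. Panel counts other than Muc6 came to 0.652 per Muc6 cell (0.495 to 0.842), to 0.767 per cell with 1 Muc6 count in the same 5 blocks (0.597 to 0.970), and to 0.472 per cell without Muc6 there (0.441 to 0.505). By Muc6 level the values were 0.429 at 2 counts, 0.419 at 3 or 4, 0.50 at 5 to 9, and 2.00 at 10 or more (1.28 to 2.98). The 12 cells of the last class held 24 of the 58 other counts of the group. The reference cells stood at 6.47 per cell because the threshold of 2 counts selects them for depth, which the Muc6 cells were not.

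**Figure D3:**
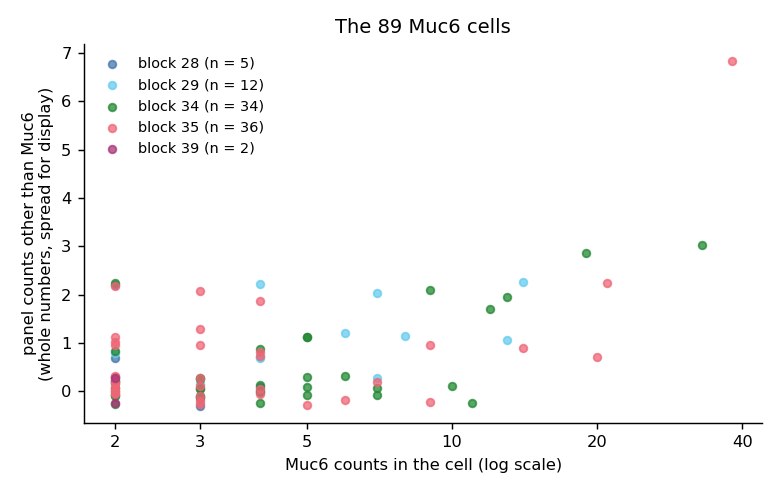
Each of the 89 Muc6 cells by its Muc6 counts (log scale) and its panel counts other than Muc6 (whole numbers, spread vertically for display), coloured by identifier block. Most cells lie at 0 or 1 other counts, and the cell with 38 Muc6 counts stands alone at 7.

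Because Muc6 chose the cells, the other genes were compared as levels per 10000 panel counts other than Muc6. The Muc6 cells supply 58 such counts and the reference cells 2713. These 58 counts came from 35 of the 139 other genes: 18 genes had 1 count, 13 had 2 and 4 had 3 or more. The highest blank barcode had 1 count in these cells, so 17 genes lay above it. In the reference cells the highest blank, Blank-2, had 30 counts. Of the genes named below with counts in Muc6 cells only Dmpk (33) exceeded it. The reference counts of the other single genes therefore lie below the highest blank. Blank-35, the next blank of the table by counts, had 13 in the reference cells. A gene with no count among 58 can still have a level of up to 517 per 10000, the level of 3 counts. Of the 23 genes with at least 20 counts over both groups, 17 had no count in the Muc6 cells, and for 13 of these the reference level was itself below 517, so no fold could be given. Called genes are those at least 2-fold apart: 3 of the 23 (13%) were called higher and 3 (13%) were called lower in Muc6 cells.

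The genes called lower were Snap25, which serves synaptic vesicle release, Dlgap1, a scaffold of synapses, and Col12a1, a collagen of fibrous matrix. None of them had a count in the 89 Muc6 cells. Snap25 had 433 counts in the reference cells, a level of 1596 per 10000 (1449 to 1754), and was at least 3.09-fold lower in Muc6 cells. Col12a1 had 336 counts, a level of 1238 (1110 to 1378), and was at least 2.39-fold lower. Dlgap1 had 325 counts, a level of 1198 (1071 to 1336), and was at least 2.32-fold lower. These bounds set a count of 0 at 3 counts. At the wider exact 95% limit they were 2.50 for Snap25, 1.94 for Col12a1 and 1.87 for Dlgap1, the last pair under the 2-fold of a call. These 3 genes made up 40.3% of the reference counts and none of the 58 counts of the Muc6 cells. Levels are shares of a total, so the lack of these 3 genes raises the levels of all others in Muc6 cells. The 6 compared genes with a count in Muc6 cells had a median ratio of 2.32, itself above 2-fold. Without the 12 cells of at least 10 Muc6 counts, which leaves 34 other counts, the bounds fell to 1.81 for Snap25, 1.40 for Col12a1 and 1.36 for Dlgap1, and none of the 3 was called.

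Against cells of the same identifier blocks the bounds differed by gene. The reference counts were concentrated: blocks 13 and 31, which hold no Muc6 count, gave 11.7% of the reference cells but 33.5% of their counts and 62.6% of their Snap25. Without these blocks Snap25 was at least 1.74-fold lower and no longer called, Dlgap1 at least 2.07-fold and Col12a1 at least 2.52-fold. Against all 1791 cells without Muc6 of the 5 blocks, a comparison added after seeing the data, Col12a1 (1124 per 10000) remained at least 2.17-fold lower in Muc6 cells, Snap25 (698) at least 1.35-fold, and Dlgap1 (473) lay under the limit of 517. At the exact 95% limit the ratio was up to 0.577 for Col12a1, short of 2-fold, and up to 0.940 for Snap25, close to no difference. Counted as cells, 0 of 89 Muc6 cells had any of the 3 genes. That allows a share of up to 3.37%, or 4.06% at the exact limit. Of the cells without Muc6 of these blocks 4.08% had one (3.21 to 5.10%). For each gene alone that share was 2.46% for Snap25, 1.95% for Col12a1 and 1.17% for Dlgap1, so its absence from single Muc6 cells was not detectable at this depth. Among cells with at least 2 other counts, 0 of 15 Muc6 cells (up to 20.0%, or 21.8% at the exact limit) had one of the 3. Of the 135 reference cells of the 5 blocks 35.6% did (27.5 to 44.2%). Of the 15 cells there with exactly 1 Muc6 count and at least 2 others, 4 had one. These shares were not thinned to equal depth. The 15 Muc6 cells held 2.47 other counts per cell, and the 135 reference cells held 4.34.

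The genes called higher were the kinase gene Dmpk, the actin-binding profilin gene Pfn1 and Shroom3, which acts in apical constriction of epithelia. Dmpk had 5 counts in 4 Muc6 cells, a level of 862 per 10000 (280 to 2012), and 33 counts in the reference cells, a level of 122 (83.7 to 171). The ratio was 7.09 (2.16 to 18.3). The 4 cells held 2 to 4 Muc6 counts each, so none was among the 12 highest. Against all cells without Muc6 of the 5 blocks, where Dmpk stood at 237, the ratio was 3.64 (1.07 to 10.0). Cells with exactly 1 Muc6 count in those blocks also held 5 Dmpk counts, a level of 725. Pfn1 and Shroom3 rested on 2 counts each, fewer than the 3 that a count of 0 allows, with ratios of 4.07 (0.465 to 16.5) and 3.34 (0.386 to 13.2) whose intervals span 1, and against all cells without Muc6 of the 5 blocks they stood at 1.17 and 1.46. Of the Shroom3 counts 1 lay in the 12 cells of at least 10 Muc6 counts, and without these the ratio was 2.85 (0.0697 to 17.2). All 3 ratios turn below 1 when Muc6 stays in the denominator or when counts are set per cell (0.738 and 0.713 for Dmpk), since Muc6 fills the first and the reference cells were selected for depth in the second.

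Genes listed under chloride and fluid secretion in crypts gave 7 of the 58 other counts. Of 9 listed genes 4 were on the panel, and all 4 were found in Muc6 cells: Cftr with 1 count, Kcnn4, which recycles potassium during chloride secretion, with 2, Gucy2c, the guanylin receptor, with 2, and the transporter Slc12a8 with 2. Slc12a8 was on this list but not among the listed crypt cell markers, so its 2 counts may not bear on crypt secretion. Together they stood at 1207 per 10000 (485 to 2487), against 114 in the reference cells (77.6 to 162) and 249 in all cells without Muc6 of the 5 blocks (154 to 380). The ratios were 10.6 (3.93 to 24.4) and 4.86 (1.74 to 11.9). With Muc6 kept in the denominator the ratio to the reference cells was 1.10 (0.409 to 2.55), and per cell it was 1.06 (0.395 to 2.46). Each of the 4 had under 20 counts over both groups, so none was compared on its own, and their 31 reference counts together stand beside 30 for the highest blank.

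Counted as cells, 6 of 89 Muc6 cells (6.74%; 2.51 to 14.1%) had a count of these 4 genes. In the same 5 blocks the share was 3 of 90 cells with exactly 1 Muc6 count (3.33%; 0.693 to 9.43%) and 20 of 1791 cells without Muc6 (1.12%; 0.683 to 1.72%). Of the reference cells, which were selected for depth, 29 of 419 had one (6.92%; 4.68 to 9.79%). Of those in the 5 blocks 12 of 135 did (8.89%; 4.68 to 15.0%). Among the 15 Muc6 cells with at least 2 other counts, thinned to 2 such counts each, 21.3% had one, against 4.51% of the reference cells and 5.43% of those in the 5 blocks. The 21.3% rests on those 15 cells and has no interval, so how far it lies from the other shares was not measured. The remaining 74 Muc6 cells are too shallow for that comparison. The 12 cells of at least 10 Muc6 counts held 4 of the 7 counts. Without them, 3 of 77 Muc6 cells (3.90%) had one, and the ratio of levels to the reference cells was 7.72 (1.51 to 24.8). The list was chosen with earlier results of these data known, and its ratio has no replicate.

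Markers of absorptive cells and muscle other than Dmpk gave little to separate the groups. The 4 absorptive genes on the panel gave 2 counts, both of Shroom3, while the water channel Aqp8, the chloride exchanger Slc26a3 and the membrane linker Ezr were at 0. Their summed level was 345 per 10000 (41.8 to 1246), against 265 in the reference cells (208 to 334). Of the 3 muscle genes only Dmpk had counts, while the filament gene Des and the calcium channel gene Cacna1c were at 0.

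Neuronal and synaptic lists had no count in Muc6 cells, and the matrix list followed Col12a1. The 7 enteric neuron genes on the panel were all at 0, against 444 counts and 1637 per 10000 in the reference cells, at least 3.16-fold lower, and at least 1.53-fold lower against all cells without Muc6 of the 5 blocks. Snap25 gave 433 of those 444 counts. The 5 synaptic genes Snap25, Dlgap1, Pclo, Syt1 and Syt4 were all at 0, at least 6.54-fold lower than in the reference cells (3384 per 10000) and at least 2.59-fold lower than in all cells without Muc6 of the 5 blocks (1337 per 10000). The 6 fibroblast and matrix genes gave 2 counts, 1 of Fn1 and 1 of Col18a1, a level of 345 against 1301, a ratio of 0.265 (0.0320 to 0.964), with Col12a1, Pdgfra, Vim and Slit3 at 0. Against the cells of the 5 blocks it was 0.272, and the interval reached 1.01. Col12a1 gave 336 of the 353 reference counts. The other 5 genes stood the other way, at 345 per 10000 in Muc6 cells, from 2 counts, against 62.7 in the reference cells, from 17, and the Col18a1 count lay in a cell of at least 10 Muc6 counts.

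**Figure D4:**
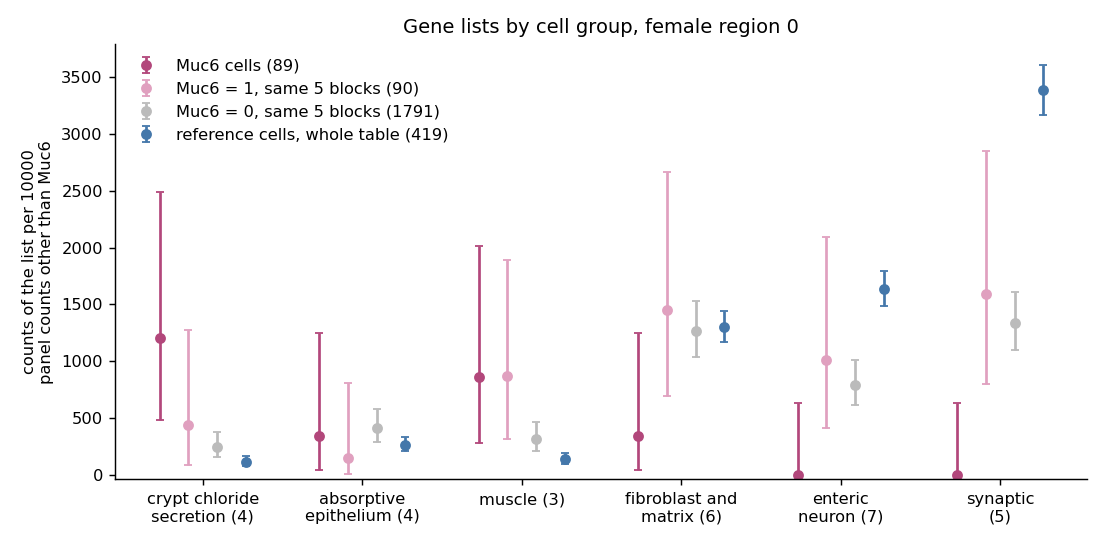
Counts of 6 gene lists (number of panel genes in brackets) per 10000 panel counts other than Muc6 in 4 groups of cells of female region 0 (number of cells in brackets), with exact 95% Poisson intervals. Muc6 cells stand at 1207 for the crypt chloride secretion list, against 114 in the reference cells, and at 0 for the neuronal and synaptic lists.

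Beside Dmpk, the genes with the most counts in Muc6 cells were Gfra1, Stard13 and Cracr2a, with 3 counts each, and 13 genes tied at 2. Gfra1, the co-receptor of the neurotrophic factor GDNF, was found in 3 different Muc6 cells (3.37%). In the reference cells, which were selected for depth, it was found in 8 of 419 (1.91%). Of the 1791 cells without Muc6 of the 5 blocks 1 held Gfra1 (0.0558%). Its level was 517 per 10000, against 33.2 in the reference cells and 11.8 in those cells of the 5 blocks. The GTPase-activating gene Stard13 was also found in 3 cells, at 517 against 51.6 and 130 per 10000. Cracr2a lay in 2 cells, with 2 of its 3 counts in the cell of 33 Muc6 counts, at 517 against 59.0 and 107 per 10000. Of the Gfra1 and the Stard13 counts 1 each lay in the 12 cells of at least 10 Muc6 counts. These 3 genes were picked for their counts in Muc6 cells, so the levels are a description. They had under 20 counts over both groups and were not among the 23 compared.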

How the data were processed

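The authors deposited, per the file headers, 1 table of raw counts for each of 4 regions, with each value the number of transcripts of 1 gene or blank barcode in 1 segmented cell. Seurat is named in the submitters' processing notes without a version or a step. How transcripts were decoded and cells segmented is not given in the sources used here. No counts were normalized, no doublets were called, and transcripts assigned to a neighbouring cell were not corrected for.

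Muc6 cells had at least 2 Muc6 counts and reference cells had Muc6 = 0 and at least 2 panel counts, in female region 0. Genes were compared by summed counts per 10000 panel counts other than Muc6, and each level has an exact 95% Poisson interval. Ratios and shares have exact binomial ones. A count of 0 was set at 3 counts, and only genes with at least 20 counts over both groups were called, at 2-fold. With 1 region of 1 animal there was no test. Named genes were called genes, members of the lists, and the genes with most counts in Muc6 cells. The rule allowed the top 5, but the fifth place was tied. Genes of the highest Muc6 cells were named after their values were seen. The members, gene lists and rules were chosen with earlier results of these data known. Alternatives were other Muc6 and depth thresholds, denominators and reference cells. Some genes, and 1 gene list that needs them, are not reported here. The procedure was tested on simulated data, where at the depth of the Muc6 cells the 2-fold rule also called unchanged genes and missed changed ones, so a call here is a size and no evidence of change. Software was Python 3.11.15, pandas 2.3.3, numpy 2.4.6, scipy 1.17.1 and matplotlib 3.10.9.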

Additional observations from a re-analysis of the deposited data

Results flagged for a closer look

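A blank barcode, which should match no transcript, gave counts in female region 0. Blank-2, the highest, had 33 counts there, in 22 cells of 13 identifier blocks, with up to 4 in 1 cell and at least 2 in 6 cells. It had no count in the 89 Muc6 cells and 30 in the reference cells, and 4 of its counts lay in the 5 blocks of the Muc6 cells.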

How the results depend on the processing

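Over 14 alternative settings, 12 of 28 counts of called genes stayed within 1.5 times of the main value and 16 did not. Without the 2 deepest blocks both stayed at 3. Against 3 genes called higher and 3 lower, keeping Muc6 in the denominator gave 0 higher and 17 lower, and counts per cell gave 0 higher and 18 lower. Dmpk, Pfn1 and Shroom3 then turned to ratios of 0.738, 0.424 and 0.348 with Muc6 in the denominator and 0.713, 0.409 and 0.336 per cell. The number called higher was 9 of 34 compared genes with no minimum for reference cells. With no filter on genes it was 32 of 130, where 35 genes had any count in Muc6 cells. It was 0 with reference cells of at least 10 panel counts, where 13 genes had enough counts in place of 23. Dmpk, no longer among them, stood at 33.5 there (7.21 to 169). The number called lower was 1 at Muc6 of at least 3, 0 at Muc6 of at least 5, 0 in Muc6 cells with at least 2 other counts, and 1 without the 5 deepest cells of each group. Alternatives chosen after seeing the data gave 0 higher and 1 lower against reference cells of the same 5 blocks, where 6 genes had enough counts and Dmpk, not among them, stood at 5.61 (1.48 to 18.7), 1 higher against all cells without Muc6 there, 1 higher against reference cells of 2 to 9 panel counts, and 0 lower without the Muc6 cells of at least 10 counts. Fewer counts raise the limit behind every gene at 0; for the other changes the cause was not tested. The number of Muc6 cells was 200 at a threshold of 1 count and 30 at 5, and they made up 3.15% of cells at a threshold of 1, 0.962% at 3, and 16.4% of cells with at least 2 panel counts. The other 3 tables held 15 cells with at least 1 count. The mean Muc6 count was 7.26 at a threshold of 3 and 4.38 without the 5 highest cells. The share of Muc6 cells with a gene of the crypt chloride secretion list was 21.3% when the 15 cells deep enough were thinned to 2 other counts. No ratio could be given for Dmpk and Pfn1 at Muc6 of at least 5, for Pfn1 in Muc6 cells with at least 2 other counts, or for Dlgap1 against all cells without Muc6 of the 5 blocks. With 58 other counts in 1 region of 1 animal, intervals are wide and the spread between animals is unknown. No paired analysis was possible because each group holds 1 animal.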
